A study of Mus musculus with 6 samples.

Results

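The tubulin genes described here are 3 alpha tubulins (Tuba1a, Tuba1b and Tuba1c), 6 beta tubulins (Tubb2a, Tubb2b, Tubb3, Tubb4b, Tubb5 and Tubb6) and 1 gamma tubulin (Tubg1), selected by symbol from a table of read counts for 27179 Entrez gene identifiers. All 10 were in the table and all 10 passed the filter on low counts. The table comes from poly(A)-selected RNA of mouse embryonic stem cells of the ES-E14TG2a background. The cells were kept on gelatin in serum-containing 2i medium with leukemia inhibitory factor, 3 uM CHIR99021 (an inhibitor of GSK3) and 1 uM PD0325901 (an inhibitor of MEK). In both groups Trim71, an RNA-binding protein of stem cells, carried a FLAG tag: 3 libraries came from cells with FLAG-Trim71 of wild-type sequence (WT) and 3 from cells with the R783H form, a mutation that the series' title links to hydrocephalus. Whether the letters A, B and C mark clones, cultures or repeat preparations is not said in the labels, so p-values measure the spread between these libraries, which may be technical.

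Alpha and beta tubulin form the dimer from which microtubules are built, and gamma tubulin sits in the ring complex that starts new microtubules. Vertebrates carry several genes for alpha and for beta tubulin, and their products, called isotypes, are alike in most residues and differ mainly in the tail. Cells adjust alpha and beta tubulin synthesis by autoregulation: when free dimers are in excess, TTC5 recognises the first residues of the nascent chain on the ribosome, and the mRNA being translated is destroyed through SCAPER and the CCR4-NOT complex. In embryonic stem cells microtubules serve rapid division, while Tubb3 is best known as a marker of neurons.

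The opening of the coding sequence is shown because it encodes the residues read in autoregulation. The first 24 bases from the start codon of 8 alpha and beta members and of Tubg1 are given 5′ to 3′ from GENCODE M21 transcripts, with the first 12 bases in capitals.
Tuba1a: ATGCGTGAGTGCatctccatccat
Tuba1b: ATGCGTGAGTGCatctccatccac
Tuba1c: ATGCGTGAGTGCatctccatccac
Tubb2a: ATGCGCGAGATCgtgcacatccag
Tubb2b: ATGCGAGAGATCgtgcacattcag
Tubb3: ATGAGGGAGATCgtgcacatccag
Tubb4b: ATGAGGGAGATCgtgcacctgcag
Tubb5: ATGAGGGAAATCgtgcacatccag
Tubg1: ATGCCGAGAGAAatcatcacccta
The letters searched for were ATG, then CGN or AGA or AGG, then GAA or GAG, then AT followed by A, C or T, or TG followed by C or T, on the coding strand and at the first base. Of 20871 coding genes with an Entrez identifier, 16 (0.0767%) open in this way, and all 16 are alpha or beta tubulins. They include 9 of the 10 members. Tubg1 does not open with these letters.

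The 3 alpha members lie on chromosome 15 of mm10: Tuba1a (Entrez 22142) at chr15:98949837-98953703 and Tuba1b (22143) at chr15:98931425-98934565 on the minus strand, and Tuba1c (22146) at chr15:99029891-99038110 on the plus strand. Tubb2a (22151, chr13:34074274-34078007) and Tubb2b (73710, chr13:34126748-34130466) are also neighbours, both on the minus strand. Tubb4b (227613) is at chr2:25222160-25224702 and Tubb5 (22154) at chr17:35833921-35838306, both on the minus strand. On the plus strand are Tubb3 (22152, chr8:123411424-123422015), Tubb6 (67951, chr18:67390717-67402749) and Tubg1 (103733, chr11:101119938-101126419). Their longest basic coding transcripts run from 1598 nt for Tubb4b to 2649 nt for Tubb5.

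The members differ in how much of their transcript is found in no other gene, which bears on the counts. Windows of 100 bases were compared with all GENCODE M21 transcripts of other genes, leaving out genes whose exons overlap the member itself. In Tubb3, Tubb5 and Tubb6 all windows were unique to the gene, and in Tubg1 95.9%. The share was 72.3% in Tubb2b, 70.8% in Tubb4b and 63.1% in Tubb2a. It was 50% in Tuba1a, 46.6% in Tuba1c and 30.9% in Tuba1b. The alpha members share windows with each other and with pseudogenes and other annotated genes, for example 48.6% of the windows of Tuba1b with Tuba1c. Tubb2a shares 35.9% of its windows with Tubb2b, and Tubb4b shares 27.4% with the pseudogene Tubb4b-ps1. How the authors' counting treated reads from shared windows is not given in the sources used here, so counts of the alpha members, Tubb2a, Tubb2b and Tubb4b are uncertain to that extent. Tuba1a and Tuba1b also share exons with the annotated gene Gm49450 on the same strand. On the opposite strand Tuba1b overlaps Gm41396, and Tubb4b overlaps Fam166a, which had at most 2 counts in any library.

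**Figure D1:**
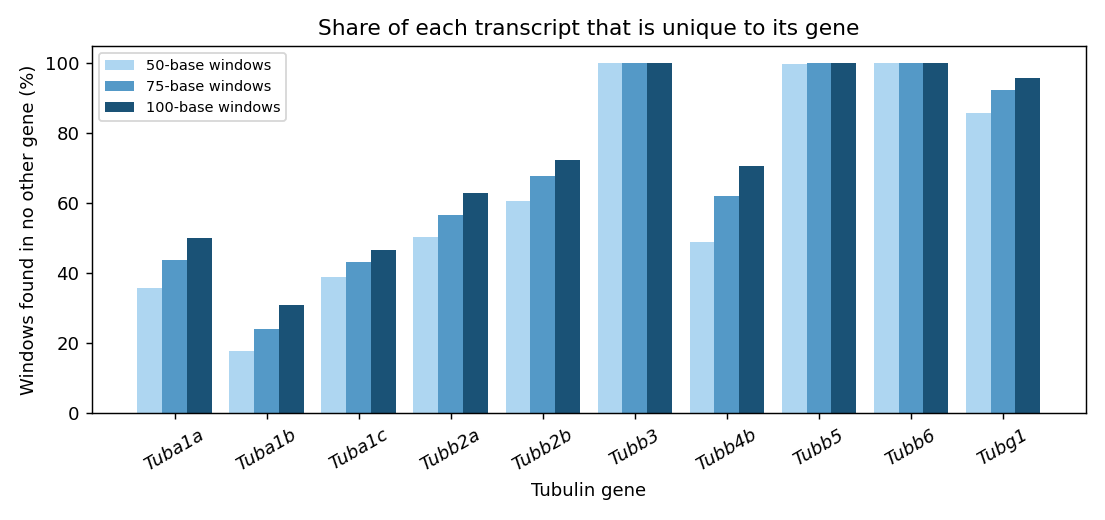
Share of windows of 50, 75 and 100 bases (y axis, percent, from 0) of each member's transcript (x axis) that occur in no other gene of the annotation. All windows of 100 bases are unique in Tubb3, Tubb5 and Tubb6, and Tuba1b is lowest at 30.9%.

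Total counts ran from 20894277 to 29079670 per library, and the 3 R783H libraries were the deepest. At these totals 3 counts, taken as the limit of detection, equal 0.103 to 0.144 CPM (counts scaled to a fixed library total). The CPM values of genes that follow use totals scaled by TMM, and 3 values for a group stand in the order of libraries A, B and C. Markers of embryonic stem cells were abundant in all 6 libraries, with the 9 genes of the list summing to 7411 to 7503 CPM in WT and 7250 to 7373 CPM in R783H. Of these 9, all tested, Dppa5a (0.30 on the log2 scale) and Tfcp2l1 (0.17, called in 13 of 17 alternatives) rose. Zfp42 (-0.36), Nanog (-0.23) and Pou5f1 (-0.21, called in 15 of 17 alternatives) fell, and 4 were not called. Of 14 neural markers, which summed to 327.9 to 332.2 CPM in WT and 401.0 to 426.1 CPM in R783H, 1 (Dcx) had no count in any library. Most of this sum was Stmn2, at a mean of 246.1 CPM in WT and 299.3 CPM in R783H. Endoderm markers, 8 genes, summed to 19.94 to 22.77 CPM in WT and 18.8 to 20.9 CPM in R783H, with Afp at 0. Of 6 tested, Gata4 (1.08 on the log2 scale) and Sox17 (1.29, from 0.3686 to 0.8974 CPM) rose and Col4a1 (-0.68) fell. Feeder fibroblast markers, 8 genes, summed to 10.84 to 11.82 CPM in WT and 11.85 to 11.95 CPM in R783H. Of 4 tested, Pdgfrb (0.30, a call kept by 12 of 17 alternatives) rose. Thy1 (-2.74) fell, from 25, 34 and 28 counts in WT to 2, 7 and 8 counts in R783H. These marker calls stand beside 64.5% of all tested genes called, 33.5% higher and 30.9% lower. The part of these cell type markers in the tubulin results was not tested. The mRNA of Trim71 itself stood at 140.5 ± 16.4 CPM in WT and 143.7 ± 12.8 CPM in R783H (SD, n = 3), a log2 fold change of 0.03 that was not called. With an offset for transcript length and GC content it was -0.26 and called lower (adjusted p 0.00131, edgeR's quasi-likelihood test). A count per gene does not check for a change of 1 residue.

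R783H was compared with WT to ask which tubulin mRNAs differ when Trim71 carries the mutation. Tubulin mRNA was lower in R783H: 9 of the 10 members fell, 0 rose, and Tubb2a was not called. The falls were of unequal size. Tubb4b, Tuba1a and Tuba1b fell to 48.1%, 48.9% and 49.9% of WT, whereas Tubb2b, Tubb5 and Tubg1 stood at 86.5%, 87.4% and 88.6% of WT. A gene was called where its p from edgeR's quasi-likelihood test, adjusted after Benjamini and Hochberg over all 14199 tested genes, was under 0.05. Over all tested genes, 30.9% were called lower, 33.5% higher and 64.5% in either direction. The median log2 fold change of the members was -0.67, against 0.03 for all tested genes. In bulk RNA, fewer cells that make a transcript and less of it per cell cannot be told apart.

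**Figure D2:**
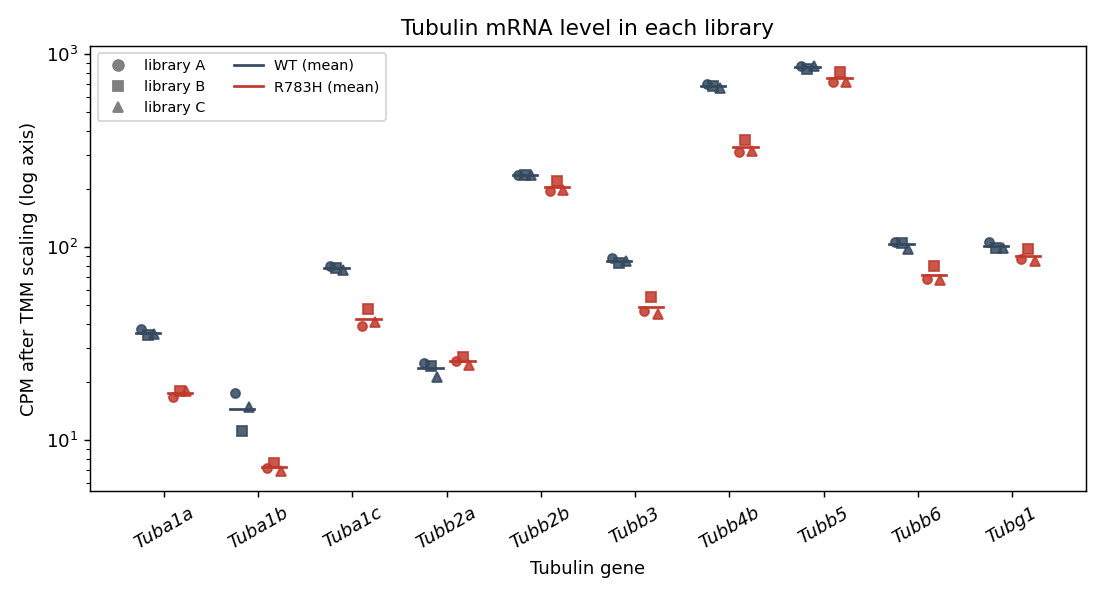
CPM of each member (x axis) in each library on a log y axis, with circles, squares and triangles for libraries A, B and C, WT in dark blue and R783H in red, and a line at each mean. In 9 members every R783H point lies under every WT point, while in Tubb2a the groups overlap.

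Summed over the 10 members, tubulin took 2272, 2200 and 2200 CPM in WT, against 1522, 1724 and 1521 CPM in R783H. The groups did not overlap, and R783H B was the highest of its group. The sum, entered as 1 row in place of its members, had a log2 fold change of -0.49 (SE 0.05, adjusted p 1.20e-05, edgeR's quasi-likelihood test), a level 28.6% lower. A sum does not depend on how reads were divided between its own genes, though reads given to pseudogenes or dropped stay outside it. The sum of Tuba1a, Tuba1b and Tuba1c was 128.7 ± 5.60 CPM in WT and 67.35 ± 5.34 CPM in R783H (SD, n = 3). Its log2 fold change was -0.93 (SE 0.06). Adding the other alpha genes, chiefly Tuba4a, gave 474.3 ± 14.8 and 299.8 ± 21.8 CPM (SD, n = 3) and a log2 fold change of -0.66 (SE 0.05). All 8 beta genes together stood at 2032, 1978 and 1976 CPM in WT and at 1373, 1554 and 1371 CPM in R783H. Their log2 fold change was -0.48 (SE 0.05). For these 3 sums adjusted p values (edgeR's quasi-likelihood test) ran from 3.63e-07 to 1.26e-05. Tubb2a and Tubb2b together changed least, by -0.18 (SE 0.05, adjusted p 0.00782, edgeR's quasi-likelihood test), and this call was lost with scaling by library size alone (-0.09, adjusted p 0.0874, edgeR).

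Among the beta tubulins, Tubb4b, a broadly expressed isotype that is also used in cilia, had the largest fall of all members. It stood at 706.6, 684.7 and 666.0 CPM in WT, against 312.9, 358.9 and 317.1 CPM in R783H. Every WT library thus lay far above every R783H library. The log2 fold change was -1.06 (SE 0.06, adjusted p 1.03e-07, edgeR's quasi-likelihood test), a level 51.9% lower.

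Tubb5, the main beta isotype of dividing cells, fell by much less. Its level was 866.3, 842.8 and 869.2 CPM in WT and 722.5, 813.0 and 718.9 CPM in R783H. The groups did not overlap, but R783H B came close to the lowest WT library. The log2 fold change was -0.19 (SE 0.05, adjusted p 0.00639, edgeR's quasi-likelihood test), and with scaling by library size alone it was -0.11 and not called (adjusted p 0.0591, edgeR).

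Tubb3 was present in these stem cells, at 87.73, 82.61 and 84.65 CPM in WT and 46.35, 55.29 and 44.90 CPM in R783H. All R783H libraries were below all WT libraries. The log2 fold change was -0.80 (SE 0.07, adjusted p 3.38e-06, edgeR's quasi-likelihood test), a level 42.5% lower. Other neural markers went in both directions: of 11 tested, 6 rose and 3 fell, where 33.5% of all tested genes were called higher and 30.9% lower. The neuronal RNA-binding proteins Elavl3 and Elavl4 fell by 1.39 (SE 0.26) and 0.92 (SE 0.25) on the log2 scale, from 1.841 to 0.7009 CPM and from 1.543 to 0.8137 CPM. Neurod1, a neuronal transcription factor, fell by 1.01 (SE 0.38) from 0.6675 CPM, a call that 9 of 16 alternatives kept. The neurofilament subunits Nefm and Nefl rose by 1.53 (SE 0.11) and 0.90 (SE 0.06), from 5.024 to 14.48 CPM and from 19.71 to 36.74 CPM. Map2 (0.96), Sox1 (0.66), Ncam1 (0.40) and Stmn2 (0.28) also rose, and Nes (-0.12) and Syp (-0.28) were not called.

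Tubb6, an isotype of broad expression, fell from 106.7, 105.6 and 98.33 CPM in WT to 68.21, 79.36 and 67.22 CPM in R783H. Its groups were separate, and the log2 fold change was -0.53 (SE 0.07, adjusted p 3.53e-05, edgeR's quasi-likelihood test). Tubb3, Tubb5 and Tubb6, the members with no shared windows at 100 bases, were all lower in R783H. The part of shared reads in the falls of the other members was not tested.

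Tubb2a and Tubb2b are neighbouring genes whose proteins are nearly the same, and both are known from the developing brain. Tubb2b had 238.2, 236.6 and 235.4 CPM in WT and 196.6, 219.5 and 198.0 CPM in R783H, without overlap. Its log2 fold change was -0.21 (SE 0.05, adjusted p 0.00307, edgeR's quasi-likelihood test), and -0.13 with library size alone, where it was still called. Tubb2a had 24.95, 24.26 and 21.28 CPM in WT and 25.55, 26.78 and 24.58 CPM in R783H. It is the member whose groups overlapped, and its log2 fold change was 0.13 (SE 0.07, adjusted p 0.151, edgeR's quasi-likelihood test). With library size alone it was 0.21 and with an offset for transcript length and GC content 0.22, and it was called higher in both (adjusted p 0.0243 and 0.00252, edgeR). Tubb2a-ps2, a transcribed pseudogene that shares 4.6% of the windows of Tubb2a and was looked at after its values were seen, had 43.06 ± 2.19 CPM in WT and 42.32 ± 3.61 CPM in R783H (SD, n = 3).

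The 3 alpha members fell together. Tuba1a, the alpha isotype of young neurons, had 37.48, 35.02 and 35.34 CPM in WT and 16.74, 17.97 and 18.03 CPM in R783H, a log2 fold change of -1.03 (SE 0.06). Tuba1c had 80.05, 78.29 and 76.40 CPM in WT and 39.19, 47.82 and 40.71 CPM in R783H, a log2 fold change of -0.88 (SE 0.07). In both genes the groups were far apart relative to their spread. Tuba1b, a widely expressed isotype, varied more between WT libraries, with 17.53, 11.17 and 14.81 CPM against 7.153, 7.541 and 6.887 CPM in R783H. WT B was the lowest WT library but still above all R783H libraries, and the log2 fold change was -1.0 (SE 0.14). Adjusted p values of the 3 genes (edgeR's quasi-likelihood test) ran from 2.06e-07 to 8.92e-05.

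Tubg1, which encodes the main gamma tubulin, had 106.8, 99.37 and 98.61 CPM in WT and 86.37, 98.35 and 85.18 CPM in R783H. R783H B nearly reached the lowest WT library. The log2 fold change was -0.18 (SE 0.06, adjusted p 0.0271, edgeR's quasi-likelihood test). This was the weakest call among the 9: it was lost without R783H A, R783H C, WT A or WT B, where the log2 fold change ran from -0.19 to -0.14. It was also lost with library size alone (-0.09, adjusted p 0.181, edgeR) and with the length and GC offset (-0.07, adjusted p 0.153, edgeR).

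**Figure D3:**
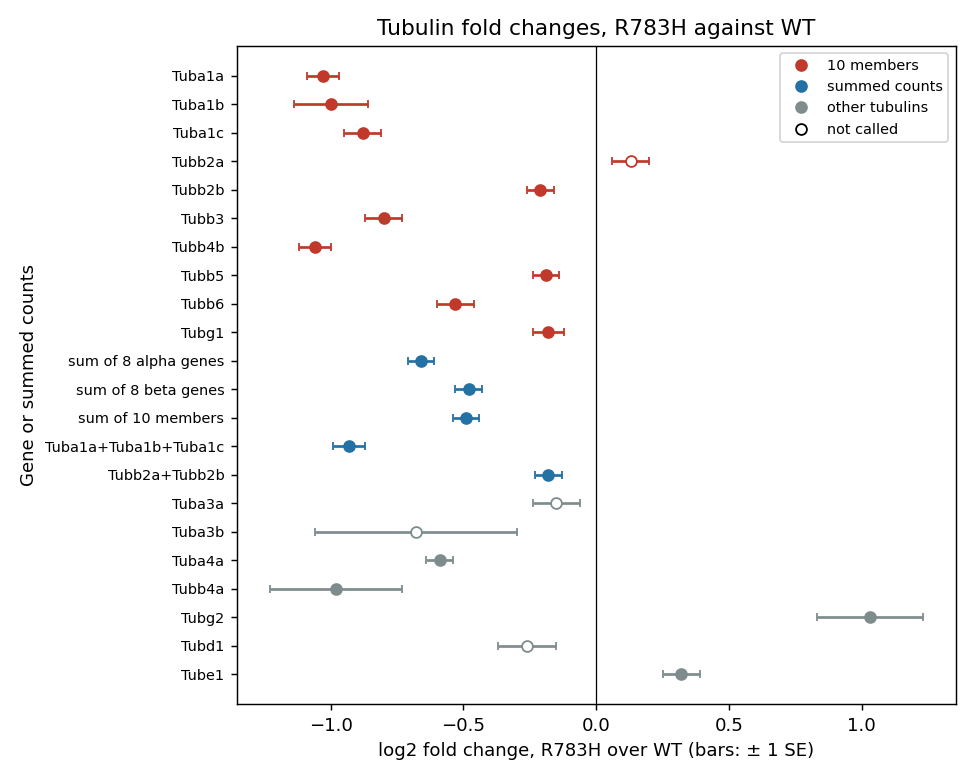
Log2 fold change of R783H over WT (x axis, bars ± 1 SE from edgeR) for the 10 members in red, summed counts in blue and the other tested tubulins in grey, with open circles where the adjusted p was not under 0.05. All members but Tubb2a lie left of 0, from -1.06 for Tubb4b to -0.18 for Tubg1.

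The libraries were ordered alike across members. R783H B was the highest R783H library for 9 of 10 members, against 40.5% of all tested genes, and WT A was the highest WT library for 9 of 10, against 37.5%. Without R783H B the fall was larger, with a log2 fold change of -1.15 for Tubb4b, -0.92 for Tubb3 and -0.28 for Tubb5, and 9 members were still called lower. Among members, 5 were called lower by at least 1.5-fold (Tubb4b, Tuba1a, Tuba1b, Tuba1c and Tubb3), where 9.54% of all tested genes were. Of these, Tubb4b, Tuba1a and Tuba1b were called lower by at least 2-fold, where 3.17% of all tested genes were. This count of 3 fell to 0 with library size alone (-0.98, -0.95 and -0.92) and with the length and GC offset (-0.97, -0.97 and -0.91). It was 2 in several other settings, among them upper quartile scaling, no filter, limma-voom and equal depth. Tuba1b lay at the limit, at 49.9% of WT. CPM did not overlap in the lower direction for 9 members, where that held for 33.1% of all tested genes, and 68.1% did not overlap in either direction.

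Levels of different genes were compared as CPM per kilobase of transcript. In WT the order was Tubb4b (429 ± 12.7 CPM per kb), Tubb5 (324 ± 5.46), Tubb2b (108 ± 0.633), Tubb6 (58.9 ± 2.59), Tubg1 (56.4 ± 2.51), Tubb3 (45.5 ± 1.38), Tuba1c (39.5 ± 0.922), Tuba1a (19.9 ± 0.740), Tubb2a (14.6 ± 1.21) and Tuba1b (8.32 ± 1.83), as mean ± SD with n = 3. The neighbours Tubb6 and Tubg1 did not differ beyond their spread. The place of the alpha members depends on the length used. Per kilobase of unique windows Tuba1c, at 89.2 in WT, stood above Tubb6 (62.4), Tubg1 (62.2) and Tubb3 (48). By that length Tuba1b (28.5 ± 6.28) and Tubb2a (24.7 ± 2.05) did not differ beyond their spread in WT (SD, n = 3). In R783H Tubb5 came first at 284 ± 20.1 CPM per kb, and Tubb4b followed at 206 ± 15.9 CPM per kb (SD, n = 3). That exchange depends on the length used. Per kilobase of coding sequence Tubb5 led in both groups, at 644 and 563 CPM per kb against 513 and 246 CPM per kb for Tubb4b. Per kilobase of unique windows Tubb4b came first in both, at 646 ± 19.1 against 337 ± 5.67 in WT and at 310 ± 24 against 295 ± 20.9 in R783H (SD, n = 3), where the pair did not differ beyond their spread. Tubb2a, at 15.9 ± 0.686 CPM per kb in R783H, stood above Tuba1a at 9.75 ± 0.405 CPM per kb (SD, n = 3) there, and below it in WT. With the count of unique windows as length, Tuba1a stood above Tubb2a in WT and Tubb2a above Tuba1a in R783H as well (42.2 and 24.7, then 20.6 and 26.9 CPM per kb of unique windows).

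The make-up of the beta pool, as each member's share of the summed counts per base of the 6 beta members, differed between the groups. Tubb4b made up 44.2%, 44.0% and 43.1% of the pool in WT, against 30.7%, 31.0% and 31.1% in R783H. Tubb5 made up 32.7%, 32.7% and 33.9% in WT and 42.7%, 42.4% and 42.5% in R783H. The share of Tubb4b was 12.8 percentage points lower in R783H and that of Tubb5 was 9.49 points higher, with no overlap of the groups in either. The exact two-sided permutation test over libraries gave p = 0.1 for each, the smallest that 3 against 3 allows. Tubb2b had 11.1% ± 0.14 in WT and 14.1% ± 0.16 in R783H, and Tubb2a 1.49% ± 0.10 and 2.39% ± 0.094 (SD, n = 3). Tubb3 went from 4.64% ± 0.086 to 3.92% ± 0.16 (SD, n = 3). Tubb6 had 6.0% ± 0.20 and 6.10% ± 0.13 (SD, n = 3), with overlapping groups, but with unique windows as length its share was 4.89% ± 0.15 and 5.14% ± 0.11 (SD, n = 3), without overlap. In the alpha pool of 3 members Tuba1a had 29.4% ± 0.28 in WT and 27.6% ± 1.6 in R783H (SD, n = 3), without overlap, whereas with unique windows as length its groups overlapped, at 26.4% ± 0.54 and 24.8% ± 1.4 (SD, n = 3). Tuba1c had 58.3% ± 1.9 in WT and 60.7% ± 1.8 in R783H (SD, n = 3), with overlap. These shares carry the uncertainty of shared windows, and with the number of unique windows as length Tubb4b had 50.6% in WT and 37.0% in R783H.

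**Figure D4:**
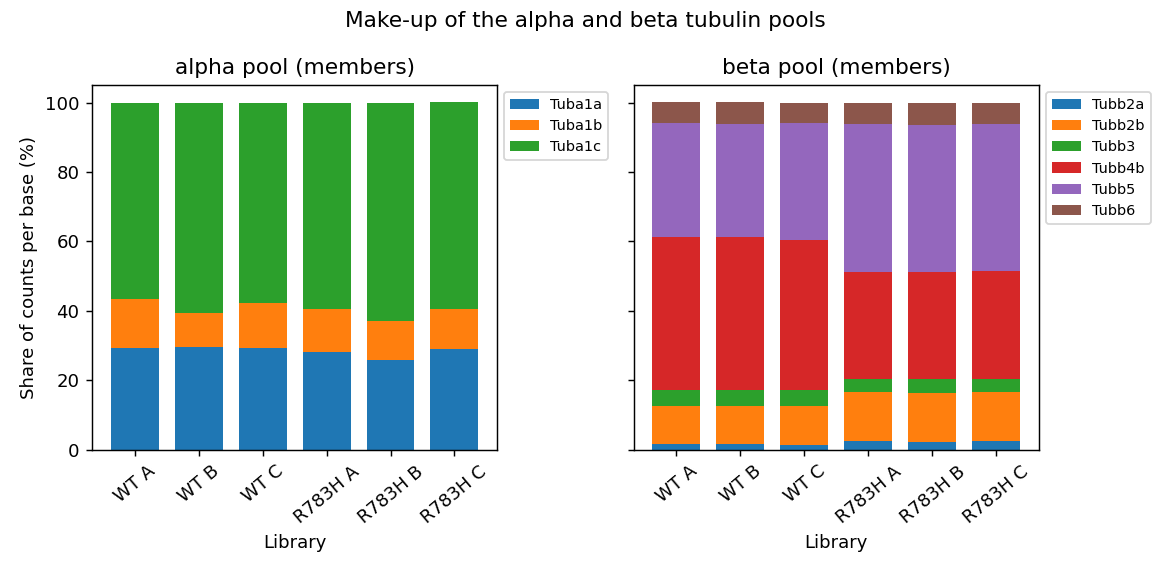
Share of each member (y axis, percent, stacked to 100) in the counts per base of the 3 alpha members (left) and the 6 beta members (right), with 1 bar per library on the x axis. The Tubb4b block shrinks from 43.1% or more in WT to 31.1% or less in R783H, and the Tubb5 block grows.

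Promoters are shown for Tubb4b, Tubb5 and Tubb2a, the beta members with the largest fall, with a small fall at a high level and with no call. The 250 bases before the start site are from RefSeq on GRCm38.p6 (mm10), 5′ to 3′ on the gene's strand, and capitals mark the motif CCAAT, the GC box (letters GGGCGG), the TATA box (letters TATAAA) and the E-box (letters CACGTG), or their reverse complements.
Tubb4b, chr2:25224703-25224952, minus strand: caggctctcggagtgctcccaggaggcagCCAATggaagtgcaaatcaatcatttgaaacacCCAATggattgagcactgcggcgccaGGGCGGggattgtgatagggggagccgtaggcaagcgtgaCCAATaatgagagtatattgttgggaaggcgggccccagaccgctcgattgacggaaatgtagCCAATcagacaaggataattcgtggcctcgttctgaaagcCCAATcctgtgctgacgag
Tubb5, chr17:35838302-35838551, minus strand: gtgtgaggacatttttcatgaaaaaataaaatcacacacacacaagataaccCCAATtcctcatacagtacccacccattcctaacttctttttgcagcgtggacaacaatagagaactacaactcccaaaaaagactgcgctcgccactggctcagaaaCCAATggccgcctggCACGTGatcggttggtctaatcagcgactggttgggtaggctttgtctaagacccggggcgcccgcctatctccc
Tubb2a, chr13:34078009-34078258, minus strand: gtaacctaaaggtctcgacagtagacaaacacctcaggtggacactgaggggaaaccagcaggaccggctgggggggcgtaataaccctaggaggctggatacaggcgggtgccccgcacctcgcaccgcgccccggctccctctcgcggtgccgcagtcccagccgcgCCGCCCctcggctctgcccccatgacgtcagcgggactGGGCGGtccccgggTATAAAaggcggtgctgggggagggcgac
RefSeq promoters were matched for 7 members, Tuba1a, Tuba1b, Tuba1c, Tubb2a, Tubb3, Tubb4b and Tubb5. Start sites here are those of RefSeq and differ in part from the GENCODE gene spans given above. The windows of Tuba1a, Tuba1b and Tubb3 lie partly inside those spans, and that of Tubb5 by a few bases. The window of Tubb4b holds 5 copies of CCAAT on its strand and 1 GC box. At least 5 copies of CCAAT on either strand, a cut-off equal to the count in Tubb4b, occur in 70 of 32851 promoters (0.213%), and at least 1 copy in 33.8%. Tubb5 has 2 copies of CCAAT and 1 E-box, a motif found in 6.02% of promoters. Tubb2a has a TATA box, found in 12.4% of promoters, and 2 GC boxes, where 32.7% of promoters have at least 1. Tuba1a, Tuba1c and Tubb3 have 1 CCAAT each and Tuba1b none, and GC boxes number 1 in Tuba1a and 2 each in Tuba1b and Tubb3. These are matches of letters in a window, and no binding was measured.

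The 10 other tubulin genes of mouse were mostly low. Tuba4a, an alpha isotype, stood at 116 ± 3.46 CPM per kb in WT (SD, n = 3), above each alpha member. The gap depends on the length used: per kilobase of unique windows it had 121 ± 3.58, against 89.2 ± 2.08 for Tuba1c (SD, n = 3). Of the 100-base windows of Tuba4a 100% were unique, against 30.9% to 50% in the alpha members. If reads from shared windows were dropped, levels of the alpha members are understated, so the order of these genes is uncertain. Tuba4a fell from 340.2, 331.1 and 320.6 CPM in WT to 207.9, 237.5 and 211.9 CPM in R783H, a log2 fold change of -0.59 (SE 0.05, adjusted p 3.42e-06, edgeR's quasi-likelihood test). Its exons overlap Stk16 on the opposite strand, which also fell (-0.53, SE 0.06), and without a stated use of strand the reads of the pair cannot be told apart. Tubb4a, a brain isotype, fell by 0.98 (SE 0.25) at 1.218 CPM in WT. Tubg2, the second gamma tubulin gene, rose from 20, 21 and 22 counts in WT to 59, 63 and 50 counts in R783H, a log2 fold change of 1.03 (SE 0.20). Tube1, the epsilon tubulin of centrioles, rose by 0.32 (SE 0.07). Adjusted p values of Tubb4a, Tubg2 and Tube1 (edgeR's quasi-likelihood test) ran from 8.71e-04 to 0.00527. Tuba3a (-0.15, SE 0.09), Tuba3b (-0.68, SE 0.38) and Tubd1 (-0.26, SE 0.11) were not called. Tuba8 had at most 6 counts in a library and was not tested, and Tubal3 and Tubb1 had no counts, which allows up to 0.144 CPM at the lowest depth.

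The counts of called genes in the pathway lists stand beside 64.5% of all tested genes called, 33.5% higher and 30.9% lower. Of the 11 tested genes of the gamma-tubulin complex, 5 rose and 1 fell, with a median log2 fold change of 0.12. Akap9, a scaffold of centrosome and Golgi, rose by 0.97 (SE 0.12), from 30.33 ± 1.25 to 59.55 ± 11.3 CPM (SD, n = 3). Cdk5rap2, which anchors and activates the ring complex, rose by 0.45 (SE 0.05), and Tubgcp5, a ring component, rose by 0.29 (SE 0.08). Cdk5rap2, once the length and GC offset was applied, was at 0.06 and not called (adjusted p 0.159, edgeR), and 3 of the 11 genes were called. Under the same offset Akap9 was at 0.55 and Tubgcp5 at 0.16, both still called, while Pcnt and Tubgcp6, the remaining risers (0.24 and 0.19), were at -0.04 and -0.05 and not called.

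Genes of tubulin folding went both ways, with 2 higher and 5 lower of 13 tested and a median of -0.07. These counts stand beside 64.5% of all tested genes called. With the length and GC offset 10 of the 13 were called, where 9022 of all 13067 genes tested with it were. Pfdn6, a subunit of prefoldin, which passes nascent tubulin to the chaperonin, fell by 0.73 (SE 0.05), from 101.7 ± 1.60 to 61.34 ± 1.81 CPM (SD, n = 3). Tbcb, a cofactor that handles alpha tubulin, fell by 0.55 (SE 0.06). Tbcel, a relative of the cofactor Tbce, rose by 0.65 (SE 0.06).

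All 3 autoregulation genes were called, where 64.5% of all tested genes were. Ttc5, which encodes the factor that recognises nascent tubulin, rose by 0.28 (SE 0.05), from 51.18 ± 0.883 to 62.14 ± 1.99 CPM (SD, n = 3). Scaper, the adaptor that it recruits, rose by 0.39 (SE 0.08), and by 0.19 with the length and GC offset (adjusted p 0.0153, edgeR). Cnot11, the CCR4-NOT subunit that meets Scaper, fell by 0.55 (SE 0.04), from 128.5 ± 2.01 to 87.99 ± 2.09 CPM (SD, n = 3). Adjusted p values (edgeR's quasi-likelihood test) ran from 1.22e-06 to 0.00166.

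Tubulin-modifying enzymes were mixed, with 5 higher and 6 lower of 15 tested, against 64.5% of all genes called, and a median of -0.01. Of the higher ones, Agbl5, Ttl and Agtpbp1 were called in 3, 10 and 15 of 17 alternatives. Of the lower ones, Ttll12, whose groups overlapped, was called in 12. The other called enzymes of this list were called in all 17. Vash1 and Vash2, carboxypeptidases that remove the last tyrosine of alpha tubulin, fell by 1.70 (SE 0.18) and 1.80 (SE 0.25), both with group means of 4.088 CPM or less. Ttll6, a polyglutamylase, rose by 0.92 (SE 0.18) from 1.966 CPM. Microtubule-associated and plus-end proteins split evenly, with 10 higher and 10 lower of 22 tested and a median of -0.01. Of the 10 higher, Camsap1, Camsap2, Ckap5, Map4 and Clip1 had lowest values of -0.16, -0.03, -0.02, 0.02 and 0.17 among the 17 alternatives. They were called in 7, 12, 15, 15 and 15 of these, in either direction. Of the 10 lower, Clasp1 and Map9 were called in 14 each. The other called genes were called in all 17, while Map1b and Mapt, not called here, were called in 2 each. Mapre3, a plus-end binding protein, rose by 1.71 (SE 0.21) and Map2, a dendritic protein, rose by 0.96 (SE 0.21), whereas Map1a, a protein of mature neurons, fell by 0.98 (SE 0.06) from 42.53 to 21.61 CPM. Of 14 tested destabilisers and severing enzymes 3 rose and 3 fell, with a median of -0.07. Stmn3, a stathmin relative, fell by 1.11 (SE 0.11), and the severing enzyme genes Katnal1 and Fign rose by 0.94 (SE 0.16) and 0.73 (SE 0.21). Fign was at 0.36 and not called with the length and GC offset (adjusted p 0.122, edgeR), and 10 genes of this list were called with that offset and also without R783H B.

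**Figure D5:**
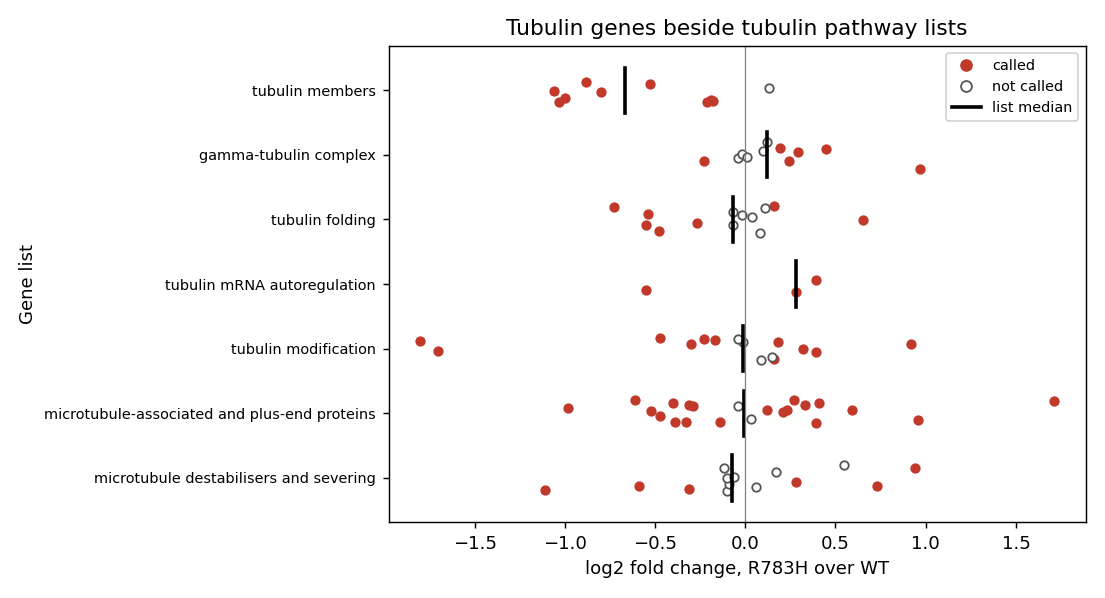
Log2 fold change of R783H over WT (x axis) for the members and for each tested gene of the 6 pathway lists (y axis, points spread vertically for legibility), filled where called, with a bar at each list's median. The median is -0.67 for the members and lies between -0.07 and 0.28 for the pathway lists.

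The genes whose pattern was most like the summed tubulin CPM, by Pearson r of log2 CPM over the 6 libraries, were Impdh2-ps (r = 0.9999), Psmd13 (r = 0.9994) and Atox1 (r = 0.9993). Their log2 fold changes were -0.51, -0.67 and -0.63. In total 2263 of 14189 genes had an r above 0.95. The 6 points share the difference between the groups and the depth of the libraries.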

How the data were processed

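Poly(A)-selected RNA of 3 R783H and 3 WT libraries was sequenced, and the authors deposited 1 table of raw read counts per Entrez gene, with 1 column per alignment file per the file headers. The submitters' processing notes name CASAVA 1.4, HISAT2, SAMtools and mm10. The counting tool, its annotation, its use of strand and its treatment of reads with several matches are not given in the sources used here. Groups and letters came from the titles. The members and gene lists were chosen with earlier results of these data known.

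Symbols came from RefSeq on GRCm38.p6 (1904 identifiers had none), and transcript lengths, GC content (available for 92% of tested genes), exon overlaps and window matches from GENCODE M21. R 4.3.3 with edgeR 4.0.16, limma 3.58.1, DESeq2 1.42.0 and mgcv 1.9.3, Python 3.11.15 and SciPy 1.17.1 were used. Genes passed edgeR's filterByExpr (minimum count 10, minimum total 15), libraries were scaled by TMM, and group was the single term of edgeR's quasi-likelihood fit, two-sided. SE is the log2 fold change divided by the square root of F. Depth was 20894277 to 29079670 counts, and reads without molecular identifiers make counting error a lower limit. Log2 CPM for the similarity measure had 0.5 CPM added. Named genes outside the members are all other tubulins and, per list, up to 3 called genes with the largest change that averaged at least 50 counts in the higher group without overlap. Marker lists are described by sums. The markers named, Pcnt, Tubgcp6 and the tubulin-modifying and microtubule-associated genes given for their alternatives were chosen after their values were seen. Tested on simulated data of 14199 genes, the fit called 88 of 100 genes changed 2-fold and 81 of 100 changed 1.5-fold, with 9 calls among the others. Only these genes were changed, up and down alike, whereas 64.5% of real genes were called. The simulation therefore does not give the error rates of the real calls. Alternatives were other scalings, filters, tests and depths, a length and GC offset, a replicate block, and each library left out.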

Additional observations from a re-analysis of the deposited data

How the results depend on the processing

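The 9 falls and the family sums kept their direction under all 17 alternatives, and 7 of the 10 members kept their call under every one. Scaling by library size alone gave -0.11 for Tubb5, -0.09 for Tubg1, -0.09 for Tubb2a with Tubb2b (none of them called) and 0.21 for Tubb2a (called). The length and GC offset, with or without the replicate block, gave 0.22 for Tubb2a (called) and -0.07 for Tubg1 (not called), 3 called genes in the gamma-tubulin list, and, without the block, 10 in the list of destabilisers. With each library left out, Tubg1 ran from -0.27 to -0.14 and the destabiliser list from 6 to 10 called genes. Over all tested genes, 8161 to 9882 were called with a library left out, against 9152. The share of Tubb6 in the beta pool, 0.1 percentage points higher in R783H with transcript length, was -0.198 points with coding length, 0.246 points with unique windows (without overlap, exact permutation p = 0.1), and ran from -0.00976 to 0.181 with each library left out. That of Tuba1b in the alpha pool ran from -1.74 to 0.417 points. The count of members at least 2-fold lower fell from 3 to 2 in several settings, among them limma-voom and equal depth. It fell to 0 with library size alone and with the length and GC offset, with or without the block. These same offsets gave -0.26 for Trim71 (called lower), -0.04 for Pcnt and -0.05 for Tubgcp6. Trim71 ran from -0.02 to 0.13 with each library left out. Alternatives for these last results, for the markers and for unique windows were chosen after seeing the data. The causes were not tested. The letters do not state a shared batch, so they were not taken as pairs. Same-lettered libraries correlated at -0.07, 0.007 and 0.085 in their deviations from the group means, and unlike-lettered ones from -0.133 to 0.126. The replicate block called 9260 genes and changed no call among the 10 members.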
